A study of Mus musculus with 2 samples.

Results

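The DNA replication machinery was described through 42 genes of origin recognition, licensing, helicase, polymerase, clamp and nucleotide supply, read in the hindbrain of mouse embryos. The genes were given by name, and their identifiers, taken without version, were matched to GENCODE symbols. All 42 were found among the 43346 genes of the tables. The tissue was the hindbrain of B6NCrl embryos, an inbred mouse strain, at 14.5 days of gestation, with no genetic change and no treatment named in the labels. Each of the 2 libraries came from 1 hindbrain of 1 pup, and 10 ng of RNA longer than 200 nt with added spike-in RNAs entered each. Both libraries form 1 group, the labels call their sex pooled, and the pups were collected on separate dates, so that date and replicate cannot be told apart. Both also carry 1 donor identifier, so the labels do not settle whether they are separate embryos. Biological and technical differences between them cannot be told apart. The p-values between them measure departure from counting error alone and hold no estimate of the spread between libraries.

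DNA is copied once per cell cycle. The origin recognition complex and the licensing factors Cdc6 and Cdt1 load the ring of Mcm2 to Mcm7 onto DNA, and Cdc45 with the GINS proteins turns the loaded ring into a moving helicase. Replication protein A covers the exposed single strand, primase and polymerase alpha start new strands, and polymerases delta and epsilon extend them on the sliding clamp Pcna. In the embryonic brain such genes are used by dividing cells of the ventricular zone and, in the hindbrain, by those of the rhombic lip, while neurons have left the cycle.

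Levels are given as TPM, a share of all transcripts corrected for length, and mean ± SD is over the 2 replicates (n = 2). Replicate 2 held 33510896 expected counts and replicate 1 held 34929425, so that 3 counts, the upper limit that a count of 0 allows, equal 0.0895 and 0.0859 CPM and cover counting error only. The hindbrain genes Hoxa5, Hoxb5 and Gbx2 stood at 141.6 ± 0.30, 118.6 ± 8.06 and 33.4 ± 0.11 TPM, whereas En2, also of the hindbrain list, reached 0.79 TPM in replicate 2 and 0.05 TPM in replicate 1. Of 8 forebrain genes, Lhx2 alone passed 1 TPM in both replicates, while Emx1 and Six6 were listed at 0 in both. In a whole tissue, fewer cells of a type and less RNA per cell cannot be told apart.

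The replication genes were present throughout: 41 of 42 had at least 1 TPM in both replicates, and 27 lay above 17.2 TPM, the median of the 15088 genes that did. Mean levels ran over 73.3-fold, or 37.6-fold by the deposited posterior mean TPM, with Pcna, the sliding clamp, highest at 96.6 TPM in replicate 2 and 87.4 TPM in replicate 1. Orc1, an ATPase subunit of the origin recognition complex, was lowest, at 1.71 TPM in replicate 2 and 0.80 TPM in replicate 1. The median member stood at 23.6 TPM, 34 members reached 10 TPM on average, and expected counts per library ran between 50 and 3741. Summed over the 42 genes, the level was 1301 TPM in replicate 2 and 1176 TPM in replicate 1, or 0.13% and 0.118% of all TPM. When the genes were ordered by mean level, 10 of 41 neighbouring pairs had replicate ranges that did not overlap, so most neighbours in that order did not differ beyond their spread.

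**Figure D1:**
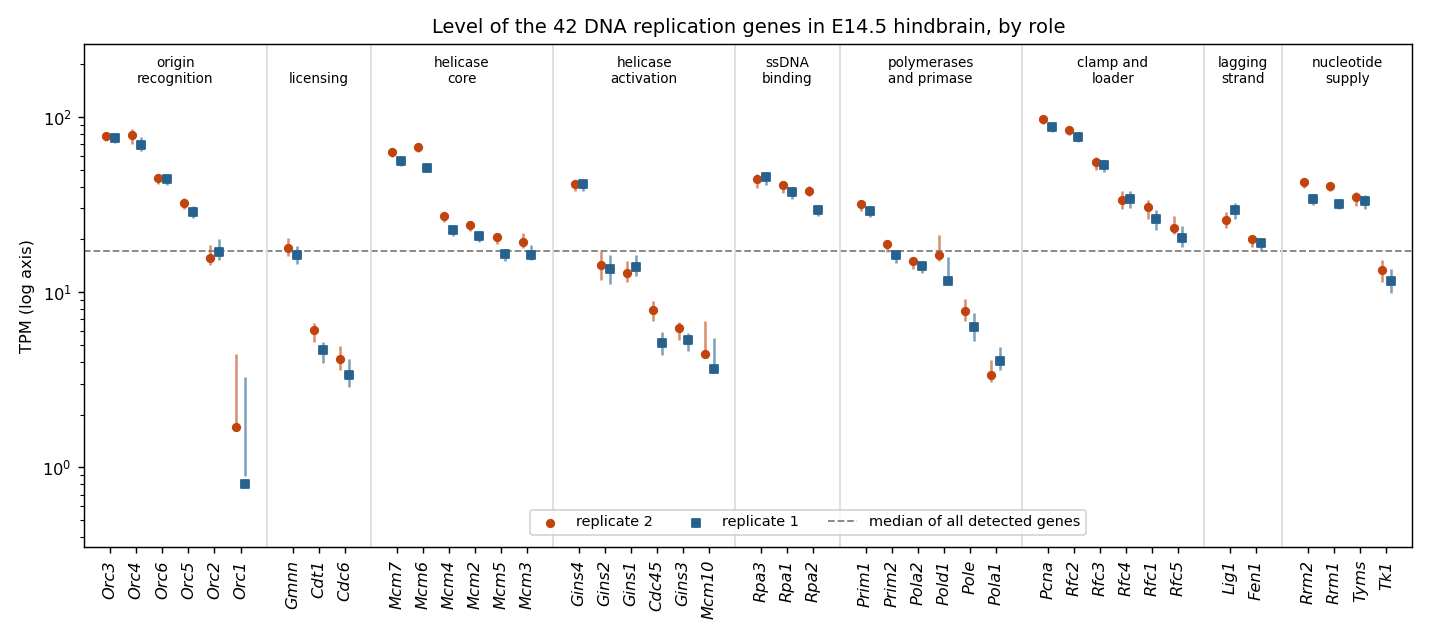
Level in TPM (log axis) of the 42 replication genes, grouped by role and ordered by mean level, with circles for replicate 2, squares for replicate 1 and lines for the deposited credibility interval of each. Pcna is highest at 92.0 TPM on average, Orc1 lowest at 1.25 TPM with its replicate 1 value under its own interval, and the dashed line marks 17.2 TPM, the median of all detected genes.

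The 6 subunits of the origin recognition complex, which marks the sites where replication can start, were spread over 61.0-fold in mean level and 31.6-fold in posterior mean TPM, against 3.33-fold and 3.27-fold for the helicase ring. The width of the spread rests on Orc1, whose mean was 1.25 TPM, and 2.39 TPM by the posterior mean. Orc3, a core subunit, had 77.8 TPM in replicate 2 and 75.3 TPM in replicate 1, and Orc4, an ATPase-type subunit, had 78.4 and 69.4 TPM. These 2 overlapped. Orc6, which is bound less tightly than the core, had 44.8 and 44.3 TPM. Orc5, an ATPase-type subunit, had 32.1 and 28.6 TPM, and Orc2, a core subunit, had 15.7 and 16.8 TPM. By gene TPM, from Orc4 down, each subunit lay below the one before it in both replicates, with no overlap. This order did not hold on protein coding transcripts alone. There Orc4 had 31.0 TPM in replicate 2 and 25.9 TPM in replicate 1, below Orc6 at 44.8 and 44.3 TPM. The range of Orc4 then overlapped that of Orc5, at 26.6 and 22.2 TPM. Orc3 had 48.5 TPM in replicate 2 and 42.8 TPM in replicate 1 on coding transcripts, a range that took in that of Orc6. By gene TPM, Orc1 lay 45.8-fold below the highest subunit in replicate 2 and 94.2-fold below it in replicate 1. Its expected counts were 88.7 in replicate 2 and 50 in replicate 1, its deposited interval in replicate 1 was 0.898 to 3.28 TPM, and its TPM there fell outside it. It was the member with the largest difference between replicates, 2.14-fold in TPM, with an adjusted p of 0.0024 by the exact binomial test described further on.

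The licensing genes lay low. Cdt1, which brings the helicase ring to origins, had 6.07 TPM in replicate 2 and 4.66 TPM in replicate 1, and Cdc6, its partner at the origin, had 4.16 and 3.35 TPM. Gmnn, the inhibitor of Cdt1, stood higher, at 17.8 and 16.2 TPM. The order Gmnn, Cdt1, Cdc6 held in both replicates with no overlap between the genes.

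The helicase ring is built from 1 copy each of Mcm2 to Mcm7, and its genes fell into 2 levels. Mcm7 had 62.8 TPM in replicate 2 and 56.2 TPM in replicate 1, and Mcm6 had 66.9 and 51.0 TPM, so which of them led differed between replicates. The other 4 lay between 16.3 and 27.2 TPM in all libraries. Mcm4 had 27.2 TPM in replicate 2 and 22.5 TPM in replicate 1, and Mcm2 had 24.01 and 20.96 TPM. Mcm5 had 20.6 TPM in replicate 2 and 16.5 TPM in replicate 1, and Mcm3 had 19.4 and 16.3 TPM. Mcm4 overlapped Mcm2 and Mcm5 overlapped Mcm3, and no value of Mcm5 or Mcm3 reached those of Mcm4 or Mcm2. All 6 were higher in replicate 2, and for Mcm4, Mcm5 and Mcm6 by over 1.2-fold in TPM. Their promoters are printed because 5 of the 6 passed the test between replicates together and 4 of the 5 with a window held an E2F-type motif. The windows are from RefSeq on GRCm38.p6, run from 250 bases before to 50 bases after the annotated start on the strand of the gene, and carry E2F-type matches in capitals.
Mcm3 (chr1:20820263-20820562, minus strand): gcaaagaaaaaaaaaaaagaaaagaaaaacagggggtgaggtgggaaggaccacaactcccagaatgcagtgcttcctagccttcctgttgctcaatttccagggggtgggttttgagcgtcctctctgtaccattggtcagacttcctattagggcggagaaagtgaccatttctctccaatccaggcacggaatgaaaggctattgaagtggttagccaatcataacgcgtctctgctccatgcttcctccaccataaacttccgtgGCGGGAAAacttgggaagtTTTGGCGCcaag
Mcm5 (chr8:75109259-75109558, plus strand): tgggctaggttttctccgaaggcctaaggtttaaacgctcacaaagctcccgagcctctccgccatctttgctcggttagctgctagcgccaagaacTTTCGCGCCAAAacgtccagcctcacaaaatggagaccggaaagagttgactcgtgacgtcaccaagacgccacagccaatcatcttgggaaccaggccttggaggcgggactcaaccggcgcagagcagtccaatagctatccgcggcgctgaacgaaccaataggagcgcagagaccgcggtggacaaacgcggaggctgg
Mcm6 (chr1:128359656-128359955, minus strand): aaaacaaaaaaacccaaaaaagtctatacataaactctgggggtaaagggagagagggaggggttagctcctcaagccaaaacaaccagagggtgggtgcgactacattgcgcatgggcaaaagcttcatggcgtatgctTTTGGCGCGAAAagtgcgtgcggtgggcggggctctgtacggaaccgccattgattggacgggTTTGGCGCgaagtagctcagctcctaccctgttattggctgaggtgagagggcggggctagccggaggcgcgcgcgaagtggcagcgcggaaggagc
Mcm7 (chr5:138171834-138172133, minus strand): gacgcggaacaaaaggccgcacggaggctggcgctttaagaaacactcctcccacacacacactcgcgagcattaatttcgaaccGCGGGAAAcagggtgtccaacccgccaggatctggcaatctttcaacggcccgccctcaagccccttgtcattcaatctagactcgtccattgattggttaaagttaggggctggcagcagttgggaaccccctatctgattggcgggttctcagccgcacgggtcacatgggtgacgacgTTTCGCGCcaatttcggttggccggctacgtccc
Mcm2 (chr6:88898731-88899030, minus strand): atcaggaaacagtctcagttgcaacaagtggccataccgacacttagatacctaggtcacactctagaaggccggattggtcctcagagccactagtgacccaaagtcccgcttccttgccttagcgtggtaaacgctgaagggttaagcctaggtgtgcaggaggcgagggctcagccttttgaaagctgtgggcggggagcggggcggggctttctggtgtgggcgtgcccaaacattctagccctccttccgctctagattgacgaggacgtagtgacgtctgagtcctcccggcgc
The Mcm2 window has no match and is shown for contrast, a second window of Mcm7 (chr5:138171217-138171516), also without a match, is not shown, and the table held no window for Mcm4. In Mcm5 and Mcm6, a match on each strand overlapped by 4 bases, so that 12 bases in a row are in capitals. A match is a description of letters and shows no binding.

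The genes that turn the loaded ring into an active helicase were spread over 10.2-fold. Gins4, a subunit of the GINS complex, had 41.1 TPM in replicate 2 and 41.2 TPM in replicate 1. Its partners, which form the same complex, were lower in both replicates. Gins2 had 14.4 TPM in replicate 2 and 13.6 TPM in replicate 1, and Gins1 had 12.9 and 13.8 TPM. Gins3 had 6.22 TPM in replicate 2 and 5.36 TPM in replicate 1. By gene TPM, Gins2 and Gins1 could not be ordered, because their ranges overlapped. On protein coding transcripts alone Gins2 had 8.51 TPM in replicate 2 and 6.68 TPM in replicate 1, below Gins1 at 12.7 and 13.1 TPM. Cdc45, the third component of the active helicase, had 7.92 TPM in replicate 2 and 5.12 TPM in replicate 1, the second largest difference of any member, with separate credibility intervals and an adjusted p of 3.2e-04 by the exact binomial test. Mcm10, which helps to activate the helicase, had 4.42 TPM in replicate 2 and 3.62 TPM in replicate 1, and its intervals overlapped.

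By gene TPM, the subunits of replication protein A, which coats single-stranded DNA, lay within 1.34-fold of each other on average. On protein coding transcripts alone they lay further apart. Rpa1 then had 21.3 TPM in replicate 2 and 19.5 TPM in replicate 1, Rpa2 36.0 and 27.5 TPM, and Rpa3 43.9 and 45.2 TPM. The values that follow are of whole genes. Rpa3 had 44.2 TPM in replicate 2 and 45.6 TPM in replicate 1, and Rpa1, the largest subunit, had 40.7 and 37.4 TPM. Rpa2, at 37.7 and 29.2 TPM, was the 1 of these that passed the test between replicates, 1.29-fold with separate intervals.

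Of the 6 polymerase and primase members, the primase subunits stood highest in each replicate. Prim1, the catalytic primase subunit, had 31.7 TPM in replicate 2 and 29.2 TPM in replicate 1, and Prim2, its regulatory partner, had 18.9 and 16.3 TPM. Pola2, the accessory subunit of polymerase alpha, had 15.1 and 14.1 TPM, whereas Pola1, its catalytic subunit, had 3.38 and 4.02 TPM. Pola1 was 1 of 7 members that were lower in replicate 2 by TPM. Pold1, the catalytic subunit of polymerase delta, had 16.3 TPM in replicate 2 and 11.5 TPM in replicate 1. Pole, that of polymerase epsilon, had 7.80 TPM in replicate 2 and 6.32 TPM in replicate 1. Both were higher in replicate 2, by 1.42-fold and 1.23-fold in TPM, although the credibility intervals of each overlapped. On counts scaled by gene total their log2 ratios were 0.32 and 0.37. A transcript of Pold1 of 609 nt, without a type, had 1.47 TPM in replicate 2 and 0.0 TPM in replicate 1. On protein coding transcripts alone Pold1 had 8.98 TPM in replicate 2 and 7.49 TPM in replicate 1, and Pole had 4.91 and 3.89 TPM.

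The sliding clamp and its loader, replication factor C, held the highest summed level of the 9 roles, 322.7 TPM in replicate 2 and 297.7 TPM in replicate 1. The order Pcna, Rfc2, Rfc3, Rfc4, Rfc1, Rfc5 was the same in both replicates. Rfc2, a small subunit of the loader, had 84.0 TPM in replicate 2 and 76.6 TPM in replicate 1. Rfc3, also a small subunit, had 54.9 TPM in replicate 2 and 53.1 TPM in replicate 1, and Rfc4 had 33.7 and 34.1 TPM. Rfc1, the large subunit, had 30.4 TPM in replicate 2 and 26.3 TPM in replicate 1, and Rfc5 had 23.1 and 20.3 TPM. By gene TPM, the small subunits thus lay on both sides of the large one. The place of Rfc1 above Rfc5 is uncertain, because a transcript of 485 nt held 39.4% of the TPM of Rfc1. TPM of such short transcripts is uncertain. A comparison on coding transcripts cannot decide the order, since 89.6% of the TPM of Rfc1 was on transcripts without a type. Whether the order holds on long transcripts alone was not tested.

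Neither of the lagging-strand genes was called between replicates. Fen1, the nuclease that trims flaps between Okazaki fragments, had 20.03 TPM in replicate 2 and 18.99 TPM in replicate 1. Lig1, the ligase that joins the fragments, had 25.7 TPM in replicate 2 and 29.4 TPM in replicate 1, but its expected counts were nearly equal, 980 and 990. It was 1 of 4 members whose TPM and depth-scaled count ratios differed in sign, and its transcripts are given below.

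Nucleotide supply divided into a pair that differed between replicates and a pair that did not pass the test. Rrm1, the large subunit of ribonucleotide reductase, which makes deoxynucleotides, had 40.1 TPM in replicate 2 and 31.8 TPM in replicate 1. Rrm2, the small subunit, had 42.3 TPM in replicate 2 and 33.8 TPM in replicate 1. Both had separate credibility intervals and ratios of 1.26-fold and 1.25-fold. Tyms, thymidylate synthase, had 34.7 TPM in replicate 2 and 33.3 TPM in replicate 1, and Tk1, cytosolic thymidine kinase, had 13.3 and 11.5 TPM.

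Replicate 2 was set over replicate 1 with an exact two-sided binomial test on rounded expected counts, each library scaled by its gene total. Adjustment by Benjamini-Hochberg ran over the 17664 genes whose mean count reached 10. The libraries differed in many genes: at an adjusted p under 0.05, 34.4% of all genes were called, 15.7% higher and 18.7% lower in replicate 2. Of the 42 replication genes, 14 were higher, 33.3% against the 15.7% of all genes, and 0 were lower, against 18.7%. At an unadjusted p under 0.05 the exact binomial test gave 17 higher and 1 lower, Pola1. The share of all genes at that unadjusted threshold was not computed, so these 2 counts have no background to be read against.

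The 14 were Mcm3, Mcm4, Mcm5, Mcm6 and Mcm7 of the helicase ring, Orc1, Cdc45, the clamp loader genes Rfc1 and Rfc5, the polymerase genes Pold1 and Pole, Rpa2, Rrm1 and Rrm2. Their TPM ratios ran from 1.12-fold (Mcm7) to 2.14-fold (Orc1). With a further minimum of 1.2-fold on scaled counts 6 of the 42 were called higher, 14.3% against 4.86% of all genes, and 0 lower, against 10.4%. The smallest adjusted p was that of Mcm6, 1.1e-17 for 3741 expected counts in replicate 2 and 3128 in replicate 1, followed by Rrm1 with 2.1e-10 for 3056 and 2650. By TPM the called members were no more abundant than the other 28, with medians of 23.3 and 25.0 TPM. The test rests on counts, which also grow with transcript length, so these medians do not show equal depth of counting. The median log2 ratio of TPM + 1 over the 42 was 0.17, beside 0.05 for all genes of at least 1 TPM, and 35 of 42 were positive. On the counts, scaled by gene total, the medians were 0.10 for the members and -0.02 for all genes.

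The count of members depended on the scaling. With TMM factors 16 were higher (all genes 18.9% higher, 16.0% lower) and with DESeq2 size factors 17 (all genes 19.3% higher, 15.7% lower), which took in Mcm2 and Cdt1 under both and Pcna under the second. Scaled by the spike-in total, 27 were higher, but so were 35.2% of all genes, with 8.46% lower, and this scaling moved the median log2 ratio of all genes up by 0.12. Among all calls, 45.7% were higher in replicate 2 with gene totals, 54.1% by TMM, 55.1% by DESeq2 and 80.6% by spike-ins. No member was lower under any of the 4 scalings. By the deposited credibility intervals of TPM, 11 members were separate and higher in replicate 2 (all genes 16.1%) and 0 were separate and lower (all genes 6.50%), and 7 of the 11 were among the 14.

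**Figure D2:**
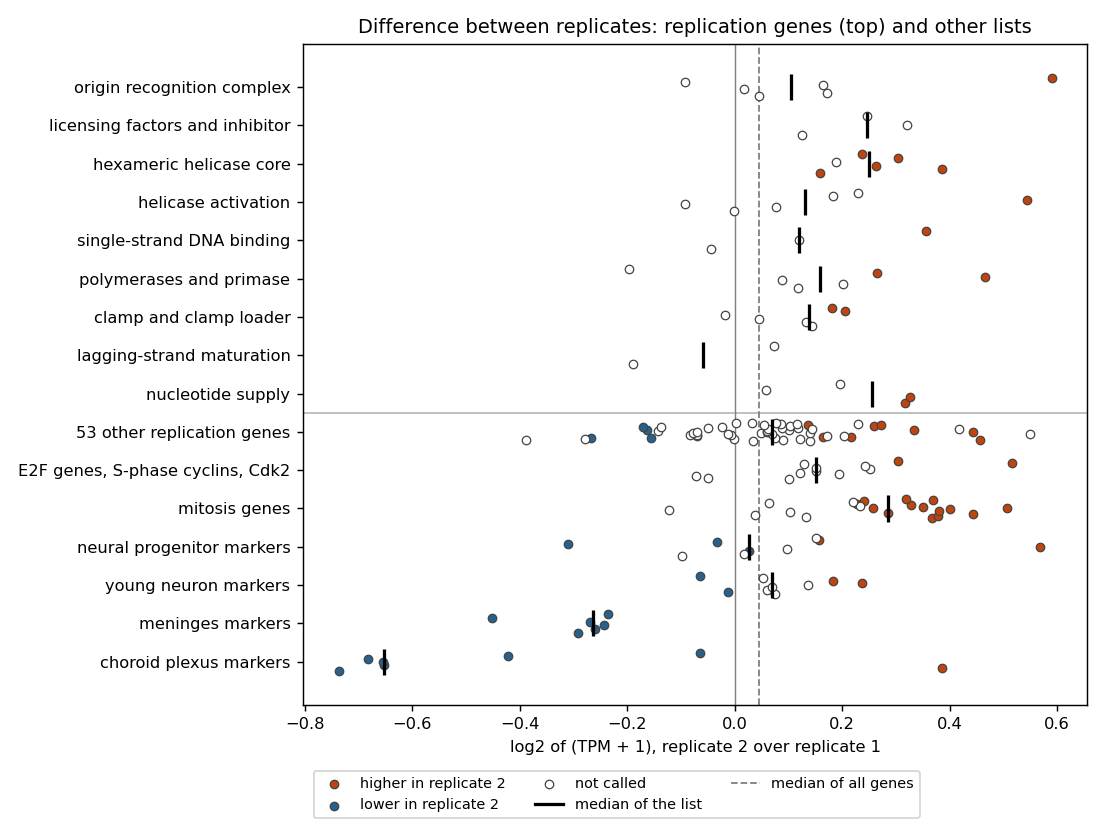
Replicate 2 over replicate 1, as log2 ratio of TPM + 1, for each gene of the 9 roles (above the grey line) and of 7 other lists, with filled points for genes called by the exact binomial test on counts, black bars for list medians and a dashed line for the median of all genes of at least 1 TPM. The helicase ring lies wholly to the right of that line, mitosis genes have a median of 0.28, and meninges and choroid plexus markers have medians of -0.26 and -0.65.

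Other genes of the pathway, 53 in 6 lists, had 8 higher (15.1%, beside 15.7% of all genes) and 4 lower (7.55%, beside 18.7%). Their median log2 TPM ratio was 0.07, nearer to that of all genes. Of 11 genes of origin firing and licensing control, 1 was higher and 2 were lower. Ticrr, which is needed to load Cdc45, was higher, at 1.54 TPM in replicate 2 and 0.85 TPM in replicate 1, while Mcmbp, a binding partner of the Mcm proteins, had 41.1 and 41.2 TPM and was not called. Of 7 partner subunits of the polymerases, 2 were higher, among them Pold3 at 46.4 and 39.8 TPM, and none was lower; Pole4 was the most abundant at 116.6 and 123.5 TPM and was not called. None of 7 fork protection and alternative clamp loader genes, led by Chtf8 at 66.7 TPM in replicate 2 and 60.4 TPM in replicate 1, and none of 6 chromatin assembly genes, led by Rbbp4 at 207.9 and 195.8 TPM, was called. Of 8 Okazaki processing and topoisomerase genes, Dna2 and Top2a were higher and Top1 was lower; Top2a was chosen for mention after its values were seen, and the largest difference was that of Dna2, at 3.68 TPM in replicate 2 and 2.44 TPM in replicate 1. Of 14 further nucleotide supply genes, 3 were higher and 1 was lower. The higher ones included Ctps, CTP synthase, at 83.1 and 68.7 TPM, and the lower one was Nme1, a nucleoside diphosphate kinase, at 267.3 TPM in replicate 2 and 301.0 TPM in replicate 1.

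The genes that run the cell cycle were read in the same way. Of 12 E2F genes, S-phase cyclins and Cdk2, 2 were higher and none lower, with a median log2 TPM ratio of 0.15. Ccna2, cyclin A2, had 34.04 TPM in replicate 2 and 23.5 TPM in replicate 1, while E2f4, the most abundant E2F gene, had 36.9 and 32.1 TPM and was not called. Of 21 mitosis genes, 14 were higher and none lower, with a median of 0.28. Ccnb1, cyclin B1, had 41.8 and 31.9 TPM, Cenpe, a centromere motor, had 4.9 and 3.15 TPM, and Cdk1, the mitotic kinase, had 71.8 and 65.4 TPM and was not called.

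Markers of other cell types also differed between the libraries, and their part in the difference of the replication genes was not tested. The 6 meninges markers were all lower in replicate 2, with a summed level of 608.0 TPM there and 733.9 TPM in replicate 1. Of 7 choroid plexus markers 6 were lower and the seventh, Kl, chosen for mention after its values were seen, was higher, at 1.47 TPM in replicate 2 and 0.89 TPM in replicate 1. The list summed to 1247 TPM in replicate 2 and 2022 TPM in replicate 1, most of it Ttr, the transthyretin gene, at 1094 and 1825 TPM. The 9 neural progenitor markers summed to 2554 and 2539 TPM with 2 higher and 3 lower, and the 9 young neuron markers to 5307 and 4885 TPM with 2 higher and 2 lower. Of 7 granule precursor and rhombic lip markers 4 were higher and 1 lower, with sums of 201.7 TPM in replicate 2 and 175.8 TPM in replicate 1. The 7 red cell markers had 4 higher and 1 lower with sums of 4534 and 3957 TPM. Endothelial markers (0 higher, 2 lower of 6), microglial markers (0 and 1 of 7) and pericyte markers (1 and 1 of 5) summed to 160.7, 122.6 and 54.2 TPM in replicate 2 and 164.2, 120.1 and 52.8 TPM in replicate 1. None of the markers of these lists was at 0 in either library.

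The transcript tables split these genes into 208 annotated transcripts. In 40 of 42 genes the most abundant transcript was of the protein coding type, and in 40 it was the same in both replicates. For 8 genes, Mcm2, Mcm4, Mcm5, Cdt1, Gins3, Gins4, Rfc2 and Rrm1, a single transcript was listed. For a comparison with all genes, 40 members and 13372 protein-coding genes of at least 1 TPM had under 5% of their TPM on transcripts missing from GENCODE M21. Among these, 97.5% of members and 93.9% of all genes had a coding main transcript, and the median coding share was 94.7% for members and 98.8% for all. Other types outweighed coding ones in 5.0% of members and 7.04% of all genes. The median retained-intron share was 0.53% for members and 0.0% for all.

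Tyms was the exception by type. Its main transcript, Tyms-205, is annotated for nonsense-mediated decay, a pathway that destroys transcripts with an early stop, and had 14.9 TPM in replicate 2 and 13.3 TPM in replicate 1. Its only coding transcript, Tyms-201, had 4.05 and 3.79 TPM, or 11.7% and 11.4% of the gene's TPM. By expected counts Tyms-201 led, with 242.8 in replicate 2 and 248.0 in replicate 1, because TPM divides by length and Tyms-201 is 3163 nt long and Tyms-205 797 nt. Over all its transcripts, 27.3% of the expected counts were coding.

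Orc3 had 59.6% of its TPM and 72.6% of its expected counts on coding transcripts, and Orc4 had 38.5% and 61.3%. Its processed transcript Orc4-212 had 11.8 TPM in replicate 2 and 11.9 TPM in replicate 1, beside 15.7 and 15.1 TPM for the coding Orc4-201. Rpa1-205, a retained-intron transcript of 716 nt, had 19.4 and 17.6 TPM, level with the coding Rpa1-201 at 19.6 and 18.8 TPM. Retained-intron types held 47.4% of the TPM of Rpa1, 44.1% of Gins2, 42.6% of Tyms, 39.0% of Tk1, 37.7% of Pole, 32.8% of Mcm10 and 30.4% of Pold1. By counts the coding share was larger, 83.5% for Gins2 and 84.1% for Rpa1, since these transcripts are short. For Rfc1, 1 of 7 transcripts could be typed with M21, so its main transcript, of 485 nt, has no type here.

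In Lig1 the main transcript differed between replicates. The full-length coding Lig1-201, of 3091 nt, had 11.4 TPM in replicate 2 and 6.45 TPM in replicate 1, while the shorter coding Lig1-206, of 944 nt, had 8.34 and 12.3 TPM. The credibility intervals of each overlapped between replicates, so they do not separate the replicates for either transcript. In replicate 2 the TPM of Lig1-201 lay above its own interval, 4.96 to 10.7 TPM, so the intervals cannot show the size of the error here. Fen1 likewise had 3 coding transcripts of nearly equal level, between 5.78 and 7.47 TPM. In Mcm7, the coding Mcm7-208 had 11.02 TPM in replicate 2 and 3.93 TPM in replicate 1 with separate intervals, whereas the main Mcm7-201 had 36.7 and 33.0 TPM.

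**Figure D3:**
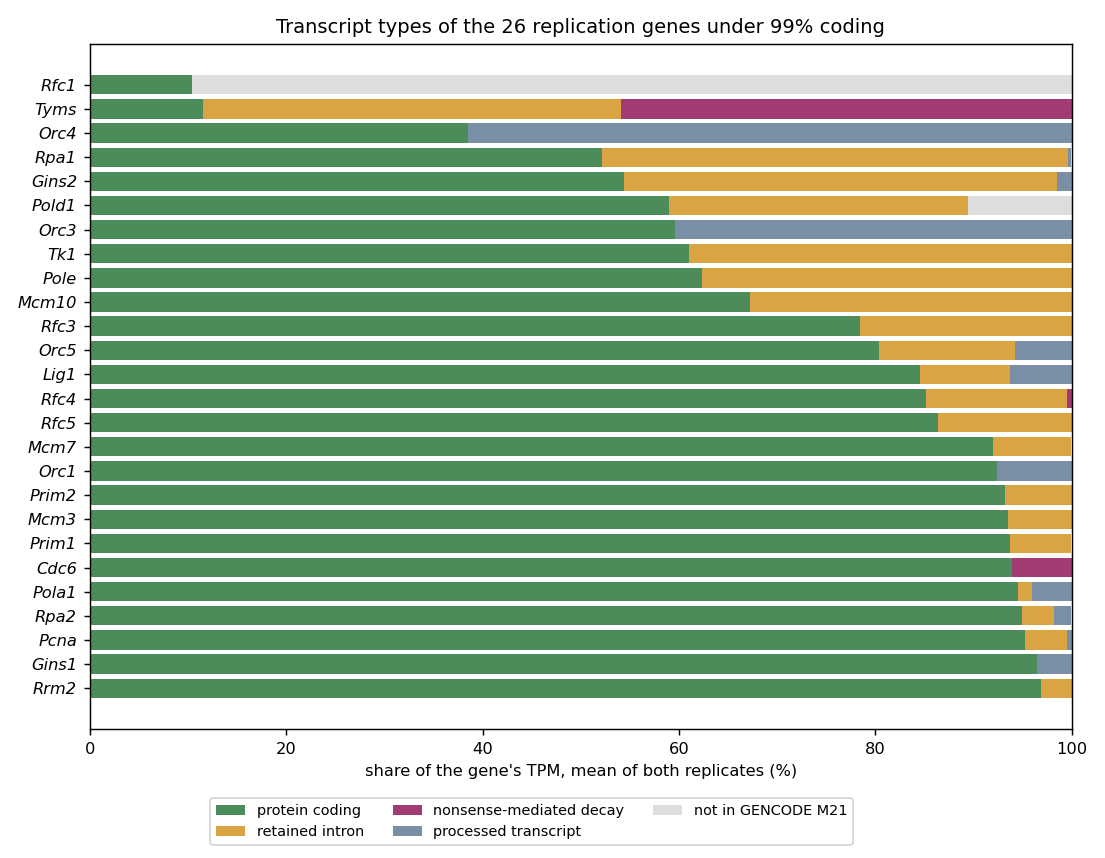
Share of each gene's TPM (mean of both replicates, %) by annotated transcript type, for the 26 replication genes with under 99% on protein coding transcripts, ordered from the least coding. Rfc1 is mostly on transcripts not in GENCODE M21, Tyms has 11.5% coding, and the retained-intron share is largest in Rpa1 at 47.4%.

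Reads from overlapping genes may add to some of these levels, and the strand setting of the counting is not given in the sources used here. Exons of Gse1, at 12.5 TPM in replicate 2 and 11.9 TPM in replicate 1, lie opposite 67.3% of the exon bases of Gins2. Nif3l1, at 40.7 TPM in both replicates, lies opposite 29.8% of Orc2, Eif4a2, at 299.5 and 266.2 TPM, opposite 12.7% of Rfc4, and Wsb2, at 271.3 and 229.9 TPM, opposite 10.7% of Rfc5. Lat2, at 1.08 TPM in replicate 2 and 1.26 TPM in replicate 1, lies opposite 15.1% of Rfc2. Gm10143, at 0.61 and 1.17 TPM opposite 78.8% of Fen1, and Gm12743, at 0.56 and 0.48 TPM opposite 10.8% of Orc1, averaged under 1 TPM and were chosen for mention after their values were seen. Smaller overlaps, each under 10% of the member's exon bases, included those of Vps35 with Orc6, Acvr2a with Orc4, Tmem258 with Fen1 and Ufd1 with Cdc45. Others were those of Ap4m1 and Cops6 with Mcm7 and of Zswim9 with Lig1, and the list is not complete. In all, 31 members had whole-number counts in both libraries and 11 did not, as happens where reads are divided between features.

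In position, the 42 genes lay on 14 chromosomes, with 8 on chromosome 5 and 6 on chromosome 8. A start site on the opposite strand within 1000 bases upstream, belonging to another protein-coding gene, was annotated for 7 members, or 16.7%, beside 9.66% of protein-coding genes of at least 1 TPM and 6.78% of all protein-coding genes. The members were Orc1, Orc3, Mcm4, Gins1, Rpa1, Rpa3 and Pole. Orc1 and Prpf38a, a splicing factor gene chosen for mention after its values were seen, start 87 bases apart, and Prpf38a had 64.2 TPM in replicate 2 and 60.7 TPM in replicate 1, against 1.71 and 0.80 TPM for Orc1.

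The promoters were searched for an E2F-type motif, since E2F proteins bind and regulate many genes used in S phase. The letters searched on both strands were TTTCCCGC, TTTCGCGC, TTTGCCGC and TTTGGCGC. RefSeq windows of 300 bases on GRCm38.p6 were held for 34 members, some with more than 1 start, 41 windows in all. A match stood in 13 of these 41 windows, or 31.7%, beside 3.76% of the 14078 windows of genes of at least 1 TPM in both replicates and 2.26% of all 32851 windows. With the stricter TTTCGCGC and TTTGGCGC the shares were 22%, 1.43% and 0.813%. The median G+C content was 60% for the members, 61.0% for the expressed genes and 52.7% for all windows.

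The 13 genes with a match were Mcm3, Mcm5, Mcm6, Mcm7, Orc1, Orc3, Cdc6, Cdt1, Gins3, Rfc3, Pola1, Pold1 and Lig1. By role, 4 of the 5 helicase ring genes with a window had one, both licensing genes with a window did, and none of the 3 replication protein A genes and none of the 4 nucleotide supply genes did. Of the 19 matches, 5 began within 100 bases before the start and 7 after it, with a median first base at -41. Mcm6 had 3, beginning at -110, -106 and -47, and Mcm5 had 2, beginning at -153 and -149. In Mcm7 they began at -165 and 17 and in Mcm3 at 20 and 39. Of the 13 genes, 6 were among those called higher in replicate 2 (15.7% of all genes were), as were 6 of the 21 with a window and no match.

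Orc1, the lowest member, is shown beside the helicase genes because its single match, on the strand opposite to the gene, begins at -27.
Orc1 (chr4:108579204-108579503, plus strand): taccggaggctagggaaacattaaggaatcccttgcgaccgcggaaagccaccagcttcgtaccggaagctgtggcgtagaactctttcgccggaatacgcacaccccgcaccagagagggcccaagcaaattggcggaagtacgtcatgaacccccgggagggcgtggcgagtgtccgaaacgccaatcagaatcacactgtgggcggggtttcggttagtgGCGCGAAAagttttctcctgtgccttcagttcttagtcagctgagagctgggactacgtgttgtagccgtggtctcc

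**Figure D4:**
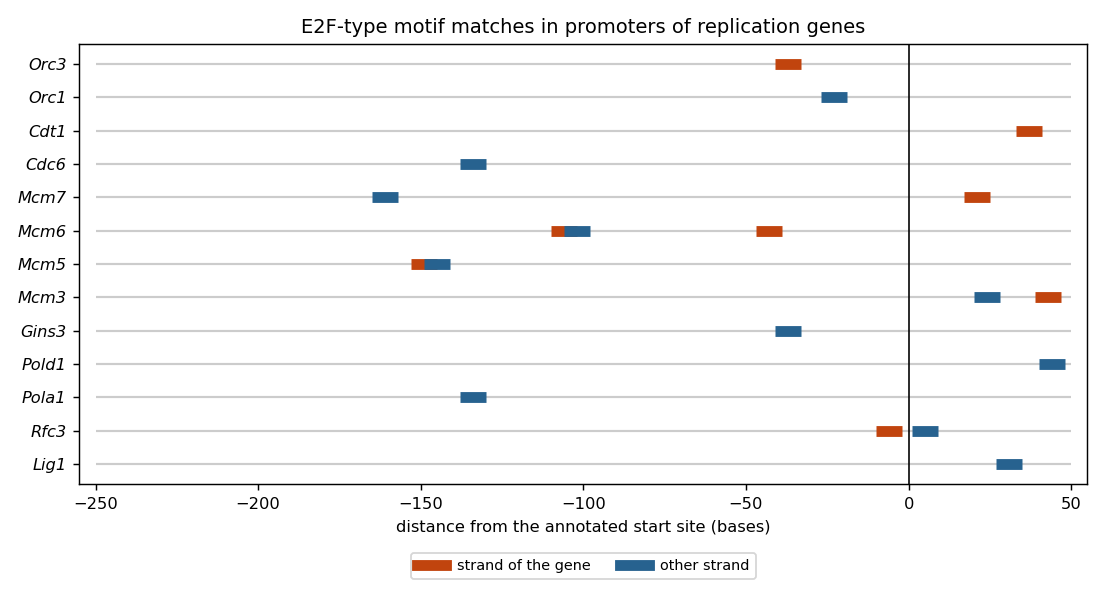
Position of E2F-type matches in the promoters of the 13 replication genes that have one, in bases from the annotated start site (vertical line), with matches on the strand of the gene in orange and on the other strand in blue; grey lines span the 300 bases searched. The overlapping pairs of Mcm6 and Mcm5 begin at -110 and -153, and the matches of Mcm3, Cdt1, Pold1 and Lig1 lie after the start.

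The CCAAT box, a motif bound by the factor NF-Y and common in promoters of cell cycle genes, was searched as CCAAT on both strands. It stood in 24 of the 41 windows, or 58.5%, beside 37.6% of the windows of expressed genes and 37.4% of all. Both motifs were present in 8 members.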

How the data were processed

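Total RNA of 2 hindbrain libraries was analysed from the authors' gene and transcript tables, made on mm10 with annotation M4, per the labels. The aligner, the quantifier and its strand option were not given in the sources used here. Expected counts, estimated by the authors for each feature and not normalised, were rounded for testing. The authors scaled TPM and FPKM by length and library, and TPM spans all features, 97 spike-in features included (7.72% of it in replicate 2, 8.15% in replicate 1). Effective lengths were 99 nt under the full length, so TPM of short transcripts is uncertain. The deposited credibility bounds served as score values, and their level is not stated in the files. Transcript shares were computed from TPM, and the authors' percent column was left aside.

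A gene was detected if both replicates had a TPM of 1 or more. Log2 ratios used a pseudocount of 1, so that low genes show smaller ratios than their fold change. The exact binomial test compares libraries, not conditions, and treats reads as independent although no molecular identifiers were used. It was tried on simulated counts that held counting error alone, so that trial says nothing of false calls between real libraries. All 42 members are named, and of other lists up to 3 genes by level and the called gene with the largest ratio. Members and lists were chosen with earlier results of these data known. Coordinates and transcript types came from GENCODE M21 (GRCm38), whose models can differ from M4. Alternatives were size factors of DESeq2 1.42.0, TMM factors of edgeR 4.0.16, spike-in scaling, other filters, pseudocounts and level estimates. Python 3.11.15 with scipy 1.17.1, numpy 2.4.6 and pandas 2.3.3, R 4.3.3 and, for figures, matplotlib 3.10.9 were used.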

Additional observations from a re-analysis of the deposited data

How the results depend on the processing

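Of the replication genes, 14 were higher in replicate 2 (15.7% of all genes), 27 with the spike-in total (35.2%) and 6 with a further minimum of 1.2-fold (4.86%). TMM factors gave 16 (18.9% of all genes), DESeq2 size factors 17 (19.3%) and separate credibility intervals 11 (16.1%). Without the filter on low counts 12 were higher, and with a mean count of at least 100, 13 were. For these last settings the share of all genes was not computed. None of the replication genes was lower under any setting. Of the 53 other replication genes, 8 were higher, or 15.1%, near the 15.7% of all genes. With the spike-in total 21 were higher (35.2% of all genes) and with the 1.2-fold minimum 3 (4.86%). Of the 53, 4 were lower (18.7% of all genes) and 2 with the spike-in total (8.46%). With the 1.2-fold minimum 1 was lower (10.4% of all genes), and by separate credibility intervals 2 were (6.50%). Among all genes 6079 were called, 2698 with the 1.2-fold minimum, which removes calls by construction, and 3995 by separate intervals. By posterior mean TPM, the levels of the members ran over 37.6-fold, against 73.3-fold by TPM. The median log2 TPM ratio of the members was 0.17 and 0.0982 with FPKM. That of the 53 was 0.0687, against 0.0081 with FPKM, 0.0251 with counts scaled by TMM and 0.126 with counts scaled by spike-ins. Scaling by TMM or spike-ins applies 1 factor to all counts of a library, so it moves the log2 count ratios of all genes alike. For all genes of at least 1 TPM, the median log2 count ratio was -0.0176 with gene totals. It was 0.0062 with TMM factors and 0.1071 with the spike-in total. The median of all genes with FPKM was not computed. Apart from the 1.2-fold minimum and these scalings, the cause of the shifts was not tested. With either replicate alone, 41 to 42 members reached 1 TPM and 40 had a coding main transcript. Alternatives added after seeing the data were those for the lower counts and median of the 53, the ratio of each member by scaling, the spread of levels by posterior mean TPM, transcript counts, and promoters of expressed genes. No paired analysis was possible because the labels give 1 group, and without a replicate no test between replicates can be made. Counting error limits Orc1 most, with 50 expected counts in replicate 1.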
